A study of Mus musculus with 8 samples.

Results

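The genes described here are grouped as Notch effectors and nuclear cofactors. They include the basic helix-loop-helix repressor genes Hes1, Hes5, Hes6, Hey1 and Hey2 and the feedback gene Nrarp. The others are the DNA-binding factor gene Rbpj and the Mastermind-like coactivator genes Maml1, Maml2 and Maml3. The question was where PRDM16, a zinc-finger transcription factor made in the neural stem cells of the cortex, was bound around all these genes. These are 10 of 21883 annotated protein-coding genes, listed by name. A region enriched with the PRDM16 antibody was assigned by its summit (RefSeq, mm10). It was counted if the summit lay in a listed gene's body, or within 100 kb of its nearer end with no closer protein-coding gene. By this rule 5 of 4553 regions in cKO replicate 1, 5 of 3088 in cKO replicate 2, 34 of 13852 in WT replicate 1 and 57 of 26652 in WT replicate 2 were counted.

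Binding was mapped by ChIP-seq, the sequencing of DNA recovered with an antibody against PRDM16, in lysates of the whole mouse cortex at E15.5. The conditional knockout (cKO) had the genotype Emx1Ires-Cre; Prdm16flox/flox, in which Cre from the Emx1 locus acts in the dorsal telencephalic lineage. Cells of other lineages in the lysate, such as interneurons and vessels, lie outside that deletion. The wild type (WT) was Prdm16 flox/flox without Cre, so both genotypes shared the floxed alleles, and each had 2 ChIP libraries. The labels do not say whether a library came from 1 embryo or from a pool. Input libraries were not analysed here. Peak lists measure no RNA or protein, so neither the loss of PRDM16 in the cKO nor the tissue label could be checked against expression. Whether peaks called in the cKO, and WT peaks shared with them, were PRDM16 binding was not tested.

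When a Notch receptor is activated, its intracellular part enters the nucleus and joins RBPJ and a Mastermind-like protein on DNA. RBPJ otherwise recruits corepressors, and the assembled complex switches on several Hes and Hey genes and Nrarp. In the radial glia of the embryonic cortex, HES1 and HES5 repress proneural genes and so keep the cells undifferentiated.

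In the WT cortex, 7 of the 10 genes had a region found by both replicates: Hes1, Hes5, Hes6, Nrarp, Rbpj, Maml2 and Maml3. Among all protein-coding genes the share with such a region was 18.3%. The 7 genes held 26 such regions, of which 22 (84.6%, Wilson 95% interval 66.5 to 93.9) overlapped no region of either cKO list, against 91.5% of the 10090 regions of both WT lists genome-wide. Those 22 belonged to 6 genes, and 16.6% of all genes had a region of that kind. The other 4 lay at Hes1, Hes6 and Maml3 and were also called in a cKO list; 3.23% of all genes had a region of both WT lists that a cKO list shared. With WT replicate 1 left out, so that the longer WT list stood alone, the counts were 57 regions and 53 outside the cKO lists. The genome-wide share of regions outside the cKO lists was not taken for that list alone. Intervals given with shares cover counting error only, and regions of 1 gene are not independent.

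Fewer regions of these genes were called in the cKO than in the WT, where the lists themselves were also longer. The cKO libraries held 5 and 5, and the WT libraries held 34 and 57. The mean was 5.0 ± 0 per cKO library and 45.5 ± 16.3 per WT library (SD, n = 2 each), 9.10 times as many in the WT. An exact two-sided permutation test over the 4 libraries gave p = 0.333, the smallest value that 2 against 2 can give. All regions of the lists together were 5.30 times as many in the WT. In a lysate of whole cortex, fewer cells with PRDM16 bound and less binding per cell cannot be told apart. As a share of its list, the 10 genes took 0.110% (0.0469 to 0.257) in cKO replicate 1 and 0.162% (0.0692 to 0.378) in cKO replicate 2, against 0.245% (0.176 to 0.343) in WT replicate 1 and 0.214% (0.165 to 0.277) in WT replicate 2. Both cKO shares were lower than both WT shares, and their intervals overlapped. With each list cut to its 3088 most significant regions, the cKO lists held 3 and 5 regions of these genes and the WT lists 7 and 5, so the ratio fell to 1.5 (exact two-sided permutation p = 0.667) and the genotypes met at 5.

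**Figure D1:**
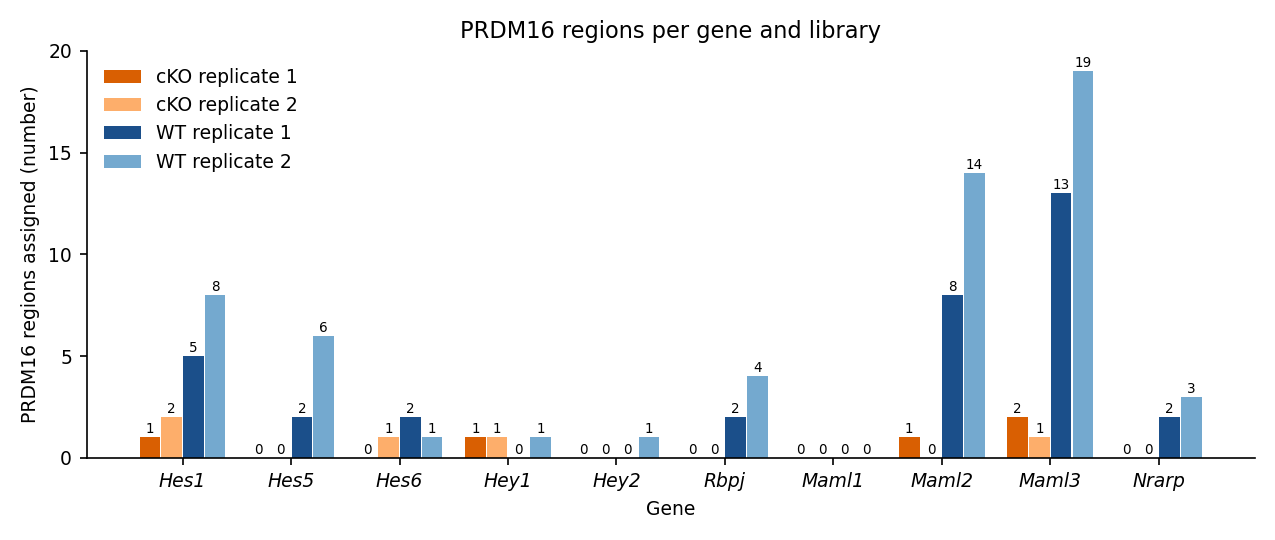
Number of PRDM16 ChIP-seq regions assigned to each gene (bars, with the count above each) in cKO replicates 1 and 2 and WT replicates 1 and 2. Maml3, Maml2 and Hes1 have the tallest WT bars, at 13 and 19, 8 and 14, and 5 and 8 regions; Maml1 has none in any library.

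Gene by gene, 6 of the 10 had fewer regions in either cKO library than in either WT library: Hes1, Hes5, Nrarp, Rbpj, Maml2 and Maml3. This held for 15.7% of all protein-coding genes. Hes6, Hey1, Hey2 and Maml1 did not separate the genotypes. No member had more regions in both cKO libraries than in either WT library, as 1.7% of all genes did. At least 1 region was called at 4 genes in each cKO library and at 7 and 9 genes in WT replicates 1 and 2. Over all protein-coding genes these shares were 16.4% and 11.8% for the cKO replicates and 23.6% and 34.5% for the WT replicates.

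The lists differed in inferred depth as well as in length. The genome-wide background was taken as the lowest local background solved for the peaks of a list, and was not measured from reads. It was 2.95 and 2.52 overlapping reads per base in cKO replicates 1 and 2, and 0.777 and 1.78 in WT replicates 1 and 2. The smallest fold enrichment (summit reads over local background, each raised by 1) that a library could call at its median background was 3.18 and 3.30 in cKO replicates 1 and 2. The same limit was 3.53 and 3.01 in WT replicates 1 and 2, so the cKO limits lay between those of the WT. Whether signal below its limit was present in a library that called no peak was not tested. The peak names carry 1 library identifier for both WT lists and another for both cKO lists. No label says what it marks, and its part in any difference between genotypes cannot be told apart from genotype.

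Hes1, the repressor that cycles in neural progenitors, had 4 regions found by both WT replicates, all with summits between 42158 and 71695 bp from the gene (chromosome 16, 30065357 to 30067796). The strongest lay 61862 bp above the gene's higher-coordinate end, from 30129454 to 30130142, with 8.14-fold enrichment in WT replicate 1 and 14.1-fold in WT replicate 2. Its summits held 22 and 59 overlapping reads over local backgrounds of 1.82 and 3.25 reads, and 29.4% and 6.10% of the peaks of WT replicates 1 and 2 had a higher fold. No cKO peak overlapped it. Below the gene, a region from 30022840 to 30023348 had 12.1-fold and 6.87-fold enrichment in WT replicates 1 and 2, with summits 3 bp apart. A second one, from 29993512 to 29994112, had 9.25-fold and 9.01-fold. Neither was called in the cKO. The next protein-coding gene, Cpn2, was 126674 bp or more from each of these summits.

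One Hes1 region was called in all 4 libraries. In the WT it ran from 30008865 to 30009368. The summits lay 56308 and 56286 bp below the gene in cKO replicates 1 and 2. In WT replicates 1 and 2 they lay 56311 and 56132 bp below it. The WT replicate 2 summit, at 30009225, was past the ends of both cKO peaks, at 30009169 and 30009204. The fold of the region was 5.32 and 7.16 in cKO replicates 1 and 2, against 4.26 and 8.99 in WT replicates 1 and 2. The cKO summits fell 22 bp apart and the WT summits 179 bp apart. This made Hes1 1 of 3 members with a region in both cKO lists, beside Hey1 and Maml3; the share of all genes was 6.89%. Of the 26 regions of both WT lists, 2 were in both cKO lists, against 4.54% of such regions genome-wide.

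Close to Hes1 itself the replicates did not share a region. WT replicate 1 had a 4.72-fold peak 1178 bp below the gene. WT replicate 2 had 4 peaks of 3.28-fold to 5.54-fold between 1052 and 5749 bp from the gene. In cKO replicate 2 a 5.83-fold peak with 22 summit reads lay in the gene body, from 30067012 to 30067205, where neither WT list had one. The replicated WT signal around Hes1 was therefore distal, and the proximal peaks came from 1 list each.

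The rule stopped short of the highest enrichment near Hes1. Beyond the 100 kb limit, and so not counted, lay a WT region 182419 bp below the gene in WT replicate 1, with 26.7-fold enrichment, and 182418 bp below it in WT replicate 2, with 32.7-fold. A weaker one lay 171393 and 171529 bp below it, with 11.9-fold and 11.5-fold in WT replicates 1 and 2. Hes1 was the nearest protein-coding gene to both. Hey2 likewise had a region beyond the limit, at 137784 and 137721 bp, with 5.31-fold and 8.88-fold in WT replicates 1 and 2. The farthest region counted for any of the 10 genes lay 75562 bp outside Maml3.

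Hes5, the other main HES repressor of radial glia, had 2 regions found by both WT replicates and no cKO region. They lay before its start on chromosome 4 (gene 154960626 to 154962372, plus strand). For every gene with a known strand, the start is here the outer end of its annotated extent. The promoter table places the start of Hes5 297 bp farther in. The farther one, from 154948140 to 154949241, had 5.91-fold and 11.3-fold enrichment in WT replicates 1 and 2, with its leading summit 12220 bp before the start. The nearer one, from 154952542 to 154953216, had 5.49-fold and 9.62-fold, with its leading summit 7889 bp before the start. WT replicate 2 was the higher one at both. WT replicate 2 alone added 4 peaks, among them a 6.91-fold peak 48 bp before the start and a 4.75-fold peak 440 bp into the gene.

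The count of 0 and 0 in the cKO for Hes5 rests on the rule by a narrow margin. A peak lay 16141 bp from Hes5 in cKO replicate 1 (3.84-fold) and 16125 bp from it in cKO replicate 2 (5.12-fold). Both went to Tnfrsf14, a cytokine receptor gene, which was 276 and 244 bp closer.

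**Figure D2:**
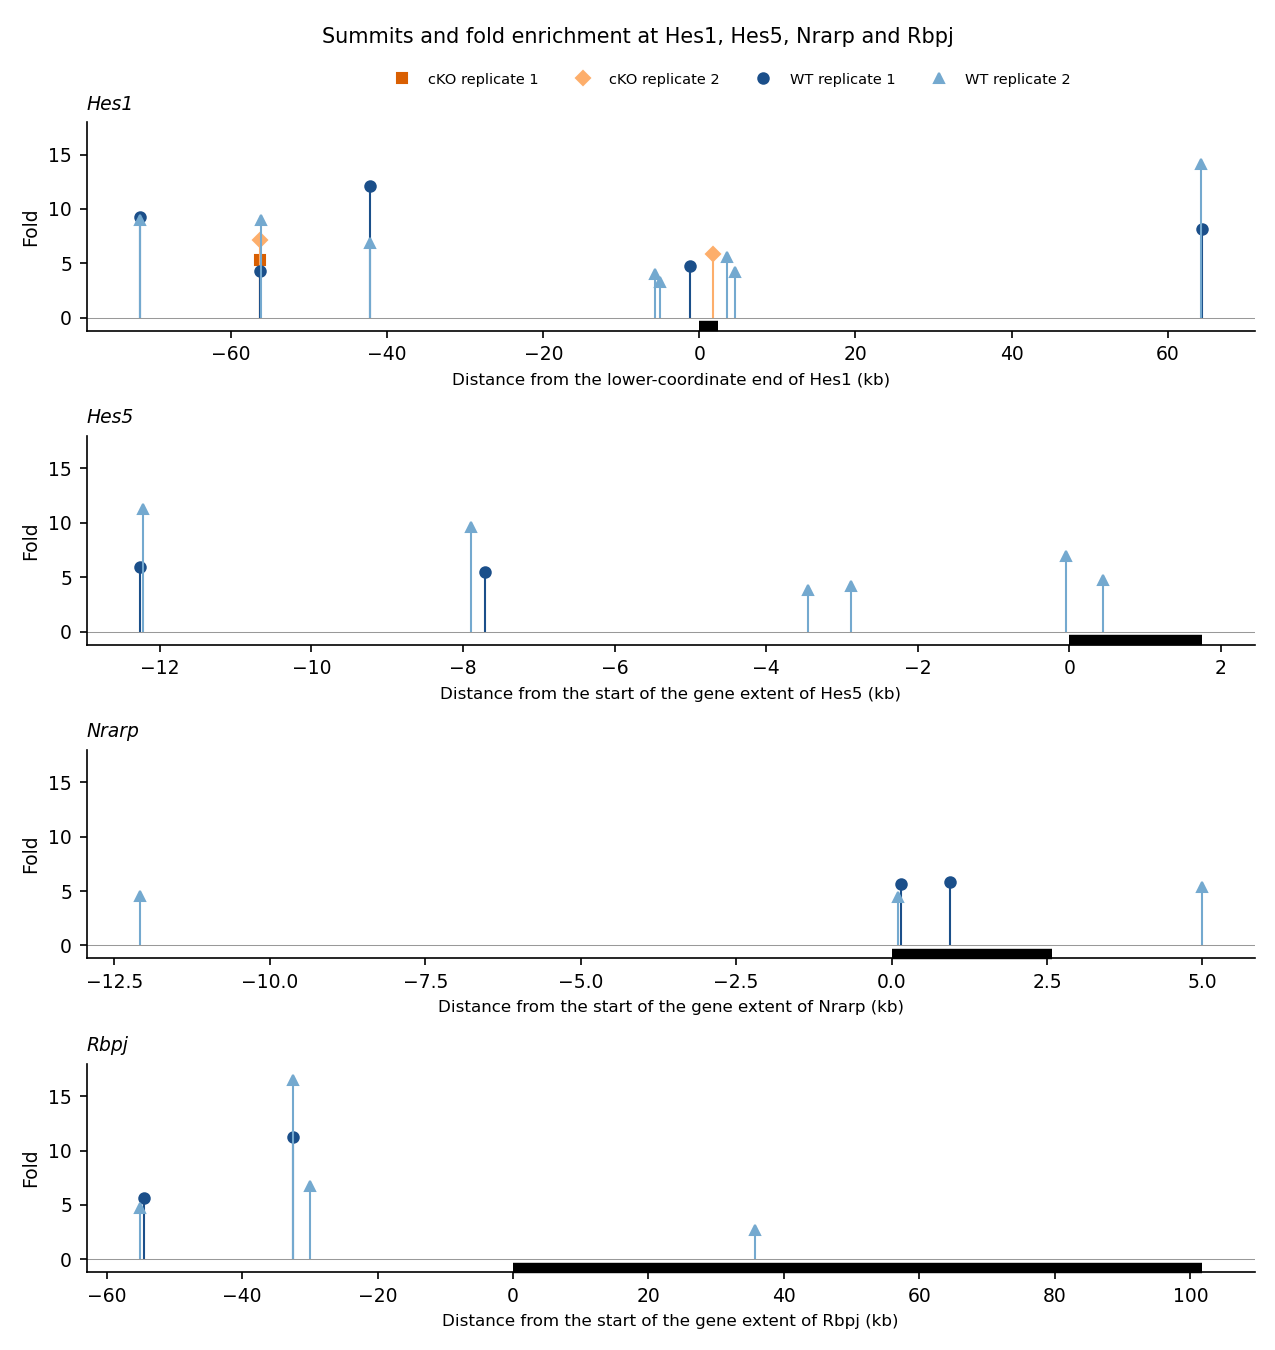
Each marker is the summit of a region of Hes1, Hes5, Nrarp or Rbpj, placed by its distance in kb from the start of the gene's extent, or for Hes1 from the lower-coordinate end (horizontal axis), and by its fold enrichment in that library (vertical axis); black bars are gene bodies. For Hes1 and Rbpj the tallest markers stand outside the genes, 61862 and 32437 bp from their nearer ends, and cKO markers appear at Hes1 only.

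Hes6 encodes a HES protein that counteracts HES1 and promotes neuronal differentiation. It had 1 region found by both WT replicates, and it lay on the gene's start (chromosome 1, 91413856 to 91414475; gene 91411483 to 91414038, minus strand). The region was also called in cKO replicate 2 (4.88-fold, 21 summit reads), against 5.14-fold and 5.93-fold in WT replicates 1 and 2 (10 and 27 summit reads). cKO replicate 1 had no peak there. WT replicate 1 alone had a further 4.85-fold peak 951 bp into the gene.

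Nrarp encodes an ankyrin-repeat protein that is switched on by Notch and dampens it in turn. Its 1 region found by both WT replicates covered the start of the gene (chromosome 2, 25180464 to 25181415; gene 25180758 to 25183339, plus strand). Only the WT replicate 2 peak reached the start, and the WT replicate 1 peak began past it, at 25180808. The region had 5.65-fold and 4.47-fold enrichment in WT replicates 1 and 2, with 10 and 18 summit reads, and no cKO peak. Single-list peaks of 4.54-fold to 5.88-fold lay 12093 bp before the start, in the gene and 2406 bp beyond its end. With peaks under 5-fold removed, the shared Nrarp region was not counted, since WT replicate 2 lay below that value. A stronger region, 15.6-fold and 18.2-fold in WT replicates 1 and 2, lay 54469 and 54501 bp from Nrarp but closer to Noxa1.

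The promoter sequences of Hes6 and Nrarp are shown because a region found by both WT replicates lay on the start of each gene. At Nrarp only the WT replicate 2 peak of that region covered the start. Each run is the 250 bases before the start of the gene's extent, which for both genes is also a start in the promoter table. For Hes6 that table holds a further start, 816 bp into the extent, whose 250 bases are not printed and had no overlapping peak. The runs are from RefSeq (GRCm38.p6, the mm10 assembly), written 5′ to 3′ on the gene's strand: chr1:91414039-91414288 on the minus strand for Hes6 and chr2:25180508-25180757 on the plus strand for Nrarp. Capitals mark exact matches, on either strand, to the motifs listed after them.
Hes6: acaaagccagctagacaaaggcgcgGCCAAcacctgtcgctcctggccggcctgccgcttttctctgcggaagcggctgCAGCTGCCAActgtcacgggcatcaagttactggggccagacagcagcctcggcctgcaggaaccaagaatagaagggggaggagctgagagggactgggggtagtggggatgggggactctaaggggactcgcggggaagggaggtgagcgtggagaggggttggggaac
Nrarp: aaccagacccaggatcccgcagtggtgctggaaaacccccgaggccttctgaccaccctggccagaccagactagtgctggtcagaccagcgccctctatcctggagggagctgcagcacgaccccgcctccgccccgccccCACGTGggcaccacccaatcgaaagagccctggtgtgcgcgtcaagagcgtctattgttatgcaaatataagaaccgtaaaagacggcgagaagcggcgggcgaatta

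The Hes6 promoter held CAGCTG, an E-box of the proneural type, whose first base was 171 bases before the start, and 2 copies of the nuclear factor I motif TTGGC, on the reverse strand as GCCAA. The second of these began at the last base of CAGCTG. The Nrarp promoter held CACGTG, the E-box type that HES and HEY proteins can bind, with its first base 108 bases before the start. Of all 32851 promoter entries, 13.0% held CAGCTG, 41.5% TTGGC and 6.02% CACGTG in their 250 bases. Neither run held TGGGAA (the core of RBPJ sites, in 21.6% of promoters), CACGCG (7.62%), CACGAG (5.37%), CAGATG (14.4%) or ACAATG (a SOX-type site, 10.7%). A match describes letters, not occupancy. At Hes6 the cKO replicate 2 peak also overlapped the run, from 91414191 on. The WT replicate 2 peaks covered both runs in full. The WT replicate 1 peak reached into the Hes6 run, but at Nrarp it began at 25180808, past the run. Of the 10 genes, 8 had a promoter entry.

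The HEY genes, repressors of the same family that act in vessels and heart as well as in neural cells, had no region found by both WT replicates. Hey1 (chromosome 3, 8663359 to 8667038) had a region in its body that both cKO libraries called, with 5.86-fold and 3.35-fold enrichment in cKO replicates 1 and 2, against 4.64-fold in WT replicate 2 and no peak in WT replicate 1. These peaks overlapped within 8664614 to 8664982. A further 4.08-fold peak of cKO replicate 2, 51 bp outside Hey1, went to the overlapping neighbour LOC115489673. Hey2 (chromosome 10, 30832359 to 30842783, minus strand) had only a 3.06-fold peak 193 bp into the gene in WT replicate 2, which 98.9% of the peaks of that list exceeded. The cKO libraries had none.

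Rbpj, the gene of the DNA-binding factor on which the pathway converges, had 1 region found by both WT replicates, and it was among the strongest of the 10 genes. It lay on chromosome 5 from 53522784 to 53523763, with its summit 32437 bp before the start of the gene's extent (53555779 to 53657445, plus strand), and Rbpj was the only protein-coding gene within 100 kb of it. The promoter table places starts of Rbpj 34567 and 34707 bp inside that extent, 67004 and 67144 bp from the summit. The fold was 11.2 in WT replicate 1 and 16.5 in WT replicate 2, with 23 and 47 summit reads over backgrounds of 1.14 and 1.91. In these lists 14.2% and 4.07% of peaks were higher. No cKO library had a peak for Rbpj. WT replicate 2 had a further 6.75-fold peak 29959 bp before the start, and peaks of 5.65-fold in WT replicate 1 and 4.67-fold in WT replicate 2 lay 54507 and 55106 bp before it without overlapping. Within the 101667 bp of the gene itself there was a 2.70-fold peak in WT replicate 2 alone, downstream of the promoter-table starts.

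The Mastermind-like genes differed among themselves. MAML proteins bridge the Notch complex to histone acetyltransferases. Maml1 (chromosome 11, 50255634 to 50293131) had no region in any of the 4 libraries. Maml2 (chromosome 9, 13296561 to 13709533) had 1 and 0 regions in cKO replicates 1 and 2, against 8 and 14 in WT replicates 1 and 2. Maml3 (chromosome 3, 51687320 to 52105319) had 2 and 1 regions in the cKO replicates, against 13 and 19 in the WT replicates. Maml2 and Maml3 were the only members with 5 or more regions found by both WT replicates, at 7 and 10; the share of all genes with that many was 1.49%.

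Maml2 and Maml3 are also very long. The genome nearest to a gene, taken as its body plus up to 100 kb on each side as far as the midpoint to the next protein-coding gene, was 434 kb for Maml2 and 502 kb for Maml3, against 46.5 kb for Maml1 and a median of 46.7 kb over all genes. Per 100 kb of it, the regions found by both WT replicates numbered 1.61 at Maml2 and 1.99 at Maml3, close to 2.03 at Hes1 and 2.00 at Nrarp and above 0.450 at Rbpj. Hes5 and Hes6, which sit in 18.6 kb and 9.84 kb, had 10.7 and 10.2, from 2 regions and 1. The rate over all protein-coding genes was 0.422, and over the 8 members other than Maml2 and Maml3 it was 1.25. These rates are descriptions of these lists, without a test.

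The strongest Maml3 region, and the strongest of the 10 genes, lay in the gene body from 52046104 to 52047334, with its summit 58941 bp into the gene. Its fold was 12.4 in WT replicate 1 and 16.6 in WT replicate 2, with 34 and 62 summit reads, and no cKO peak overlapped it. A neighbour from 52044665 to 52045572 had 12.3-fold and 4.91-fold. A region from 52101873 to 52102460, with its leading summit 3256 bp into the gene, had 8.76-fold and 7.74-fold. WT replicate 1 alone had a 5.14-fold peak 251 bp into the extent, near the start in the promoter table, which lies 313 bp into it.

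Maml3 shared 2 of its regions with the cKO. The first, near the far end of the gene from 51701300 to 51701994, had 3.84-fold and 3.64-fold enrichment in cKO replicates 1 and 2, against 9.34-fold and 10.1-fold in WT replicates 1 and 2. This region was among the 5 highest of the gene in the WT. Its summits did not coincide between genotypes. They lay at 51701530 and 51701492 in cKO replicates 1 and 2, and at 51701736 and 51701739 in WT replicates 1 and 2. The WT replicate 1 peak began at 51701579, past both cKO summits. Whether the peaks mark 1 site was not tested. The second, from 52007514 to 52008133, had 9.57-fold and 6.58-fold in the WT replicates, and its overlap with the cKO was minimal: the 4.04-fold peak of cKO replicate 1 ended at 52007515. With an overlap of at least 50% of the shorter peak, it no longer counted as shared.

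In Maml2 the 7 regions found by both WT replicates all had their summits in the gene, and none was called in the cKO. The strongest, from 13425125 to 13425690, had its summit 128869 bp into the gene, with 14.1-fold and 10.1-fold enrichment in WT replicates 1 and 2 and 24 and 42 summit reads. The next, from 13681676 to 13682072, had 7.19-fold and 10.1-fold. The regions from 13587442 to 13587772 and from 13699441 to 13700022 had 5.75-fold and 7.55-fold, and 5.07-fold and 7.33-fold. WT replicate 2 was the higher one at these 3. The regions from 13525496 to 13526221 and from 13479271 to 13479550 had 5.01-fold and 6.31-fold, and 6.57-fold and 4.20-fold. At the start of the gene's extent, 1397 bp before the first start in the promoter table, a region from 13296519 to 13296880 had 6.80-fold and 4.47-fold. A region of 11.0-fold 356024 bp into the gene was in WT replicate 2 alone. The cKO peak counted for Maml2, 4.21-fold in cKO replicate 1, lay 7001 bp beyond the end of the gene and overlapped no WT peak.

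**Figure D3:**
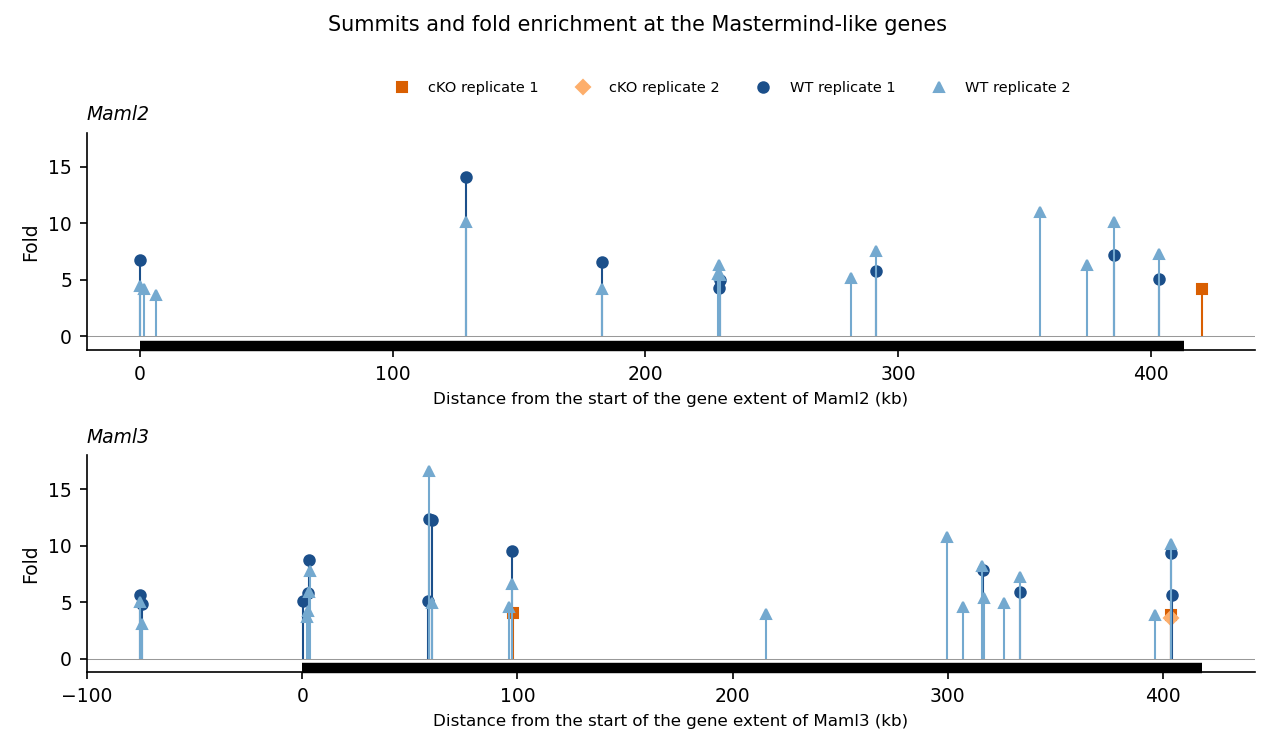
Summits of the regions of Maml2 and Maml3 by distance from the start of the gene's extent in kb (horizontal axis) and fold enrichment (vertical axis), for cKO and WT libraries; black bars are gene bodies. WT summits spread along both genes, and the 4 cKO markers are all below 5-fold.

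The folds of the 26 regions of both WT lists were spread around those of all such regions. Their mean fold over the replicates ran from 3.95 to 14.5 with a median of 7.80, against a median of 7.46 over all 10090 regions of both WT lists. WT replicate 2 had the higher fold in 14 of the 26, and the summits of the replicates lay a median of 37.5 bp apart. At most they were 271 bp apart. Most of the 26 regions were away from gene ends, as were most regions of both WT lists genome-wide. Inside genes and away from their ends lay 14, and 9 lay outside, counts for which no genome-wide share was taken. The other 3 (11.5%, 4.0 to 29.0) lay within 1 kb of a gene end, where 6.94% of all regions of both WT lists lay. The share at gene ends was 17.6% without WT replicate 2 and 5.26% with folds of at least 5. The 3 gene-end regions, at Hes6, Nrarp and Maml2, had mean folds of 5.54 ± 0.561, 5.06 ± 0.838 and 5.63 ± 1.65 (SD, n = 2 each), all below the median of the 26. A further 34 WT regions were in 1 list only, 6 of them in WT replicate 1 and 28 in WT replicate 2, the longer list. The share of all WT regions in 1 list only was not taken.

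**Figure D4:**
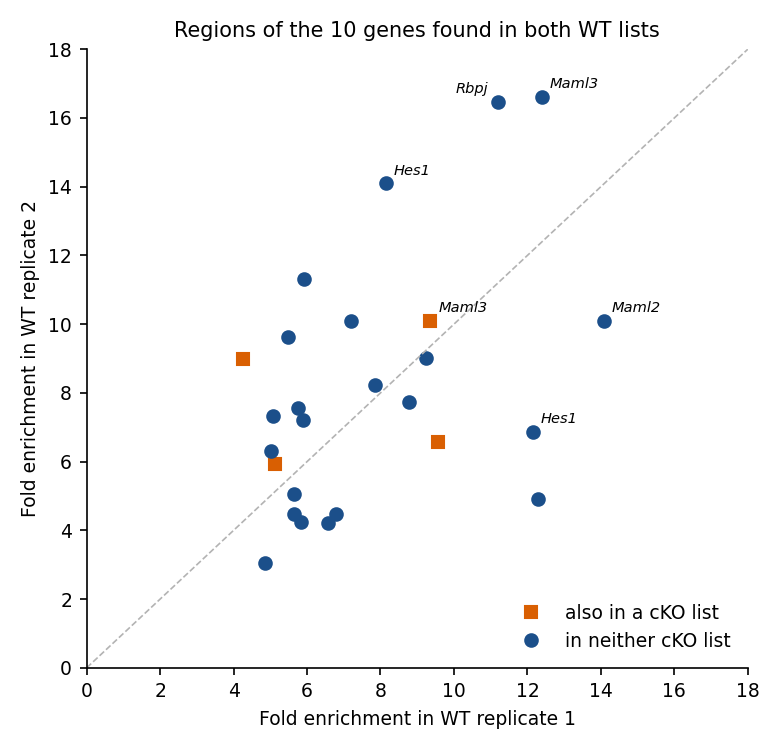
Fold enrichment in WT replicate 1 (horizontal axis) and WT replicate 2 (vertical axis) of the 26 regions found by both; squares were also called in a cKO list and circles were not, with the 6 highest by mean fold named and the dashed line marking equal folds. The regions scatter to both sides of the line, with 14 above it, and 4 are squares.

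Regions called in the cKO numbered 7 in all, of which 3 were in both cKO lists and 5 overlapped a WT peak. Of all 5892 regions called in at least 1 cKO list, 29.2% were in both cKO lists and 35.3% overlapped a WT peak. They belonged to 5 genes (Hes1, Hes6, Hey1, Maml2 and Maml3), and 20.5% of all protein-coding genes had a region in at least 1 cKO list. Their folds ran from 3.84 to 5.86 in cKO replicate 1 and from 3.35 to 7.16 in cKO replicate 2. The median over the whole list was 4.68 in cKO replicate 1 and 4.96 in cKO replicate 2.

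Other genes of the pathway set these values in context. Among 26 genes of Notch receptors, ligands and their processing, 8 had a region found by both WT replicates (against 18.3% of all genes), the highest being 51.5 ± 14.3 at Notch2, 26.8 ± 0.794 at Notch1 and 11.2 ± 5.50 at the ubiquitin ligase gene Fbxw7 (SD, n = 2 each). Among 19 genes of corepressors and coactivators 10 had one, led by the Groucho-type corepressor genes Tle3 (25.5 ± 11.4, 78725 bp outside the gene), Tle1 (23.2 ± 0.186) and Tle4 (19.8 ± 4.52). Among the 7 other hairy and enhancer-of-split genes 3 had one: Bhlhe40 (11.2 ± 4.47), Helt (5.97 ± 0.312) and Bhlhe41 (5.07 ± 2.45). Of 10 radial glia marker genes, Hes5 among them, 10 had one, led by Slc1a3 (43.4 ± 6.73), Sox9 (22.9 ± 0.698) and Fabp7 (21.9 ± 2.86). Of 10 endothelial genes 1 had one (Pecam1, 12.7 ± 3.41), and of 8 microglia genes 0 did. Fewer regions in either cKO list than in either WT list were found for 8 of the 26 receptor, ligand and processing genes, 8 of the 19 cofactor genes, 4 of the 7 hairy-type genes, 10 of the 10 radial glia genes, 2 of the 10 endothelial genes and 1 of the 8 microglia genes, against 15.7% of all genes. The opposite was found for 2 genes of the receptor list and for 0 of each other list, against 1.7% of all genes.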

How the data were processed

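The authors deposited 1 peak list per ChIP library. Per the submitters' processing notes, the tools included MACS2 2.1.1, Bowtie2 2.2.8, cutadapt and FastQC, with the mm10 build; their settings and the control input of each list are not given there. In the deposited lists a peak's enrichment is a fold over local background, a ratio, and its significance is −log10 of the p-value and of the q-value. The deposited score column was not used. All folds are the authors' and describe peaks within a list; they were not compared between genotypes by a test.

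Only peaks on the autosomes and sex chromosomes entered, which left out 37 and 19 lines in the cKO replicates and 12 and 14 in the WT replicates. Overlapping peaks of both replicates formed a region, and an overlap of at least 1 bp counted as shared. Summit reads and local background were solved together from the fold and the Poisson p-value; for 99.8% of peaks in WT replicate 2, the lowest share, a whole number of reads matched the deposited −log10 p-value to 0.0001. The solution, the gene assignment and the region classes were tested on simulated data. Gene positions and promoters came from RefSeq tables of GRCm38.p6; strand was taken from the promoter table. Exons and introns were not separated. Python 3.11.15, numpy 2.4.6 and pandas 2.3.3 were used.

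All 10 genes were described, each with its regions of both WT lists (the 5 highest where there were more). From the pathway and marker lists the 3 genes with the highest region were named. The genes and lists were chosen with earlier results of these data known. Replicates are libraries with separate labels, and the spread between them may be technical. With 2 libraries against 2, the exact permutation p-value is 0.333 whenever the genotypes do not overlap, whatever that spread. Alternatives changed the overlap, the q-value and fold thresholds, the list length, the reach, the gene-end window, the merging of overlapping peaks and the libraries included.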

Additional observations from a re-analysis of the deposited data

How the results depend on the processing

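With lists of equal length, regions in both WT lists fell to 5, of which 4 were in neither cKO list and 1 in a cKO list; 4 genes held them, and 0% lay at gene ends. With gene bodies alone, 17 regions were counted, 14 of them in neither cKO list, at 4 genes. For no alternative threshold, list length or reach was the share over all genes or all regions taken. Whether the members differed from all genes under these settings was therefore not tested. With folds of at least 5 in every list, 0 regions of both WT lists were shared with the cKO. The Hes1 region called in all libraries left this count because its fold in WT replicate 1 was 4.26. Its folds in cKO replicates 1 and 2 were 5.32 and 7.16, and 8.99 in WT replicate 2. Leaving out 1 library in turn gave 26 to 57 regions and 23 to 53 in neither cKO list. The cKO minus WT difference in regions per library kept its sign under every alternative run, from -52 without WT replicate 1 to -2 with lists of equal length (exact permutation p = 0.667). With the replicate number as a block it was -40.5 (exact permutation p = 0.5, the smallest that 2 pairs allow). Neither the block nor the overlap rule can change this value, and only the setting of equal list length removed the gap in list length. The kept sign is therefore no separate evidence. The labels do not say whether the replicate numbers mark pairs. Over 9609 genes, deviations of same-numbered libraries correlated by 0.0191, which rests on 1 difference per genotype and does not settle it. Of the recomputed counts of single genes, 85 stayed within 1.5 times the reported count and 25 did not. The 85 include counts that could not move, since leaving out a cKO library cannot change a count of regions in both WT lists. They also include genes such as Maml1 that had 0 regions and stayed at 0. The tally is therefore no measure of stability. Hes1 had 1 region in both WT lists with a reach of 50 kb and 0 with 10 kb, and Rbpj had 0 with 10 kb. The gene-end share ran from 10.5% to 17.6% without 1 library in turn and was 5.26% with folds of at least 5. Depth limits what a list can call, to folds above 3.18 and 3.30 in the cKO replicates and 3.53 and 3.01 in the WT replicates at their median backgrounds.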

Other observations

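Within 100 kb of the 10 genes, but closer to another protein-coding gene, lay 8 and 5 peaks of cKO replicates 1 and 2 and 10 and 22 peaks of WT replicates 1 and 2. The highest was a peak of 49.2-fold in WT replicate 1, 51927 bp from Hes5 and 9656 bp from Prxl2b, on chromosome 4 from 154908549 to 154908849; WT replicate 2 had no peak there. Near Rbpj, a region closest to Cckar, the cholecystokinin A receptor gene, had 5.05-fold enrichment in cKO replicate 1 and no peak in cKO replicate 2, against 14.1-fold and 14.1-fold in WT replicates 1 and 2, and lay 50325 to 50655 bp from Rbpj. Near Nrarp, peaks inside Anapc2 had 6.36-fold and 7.43-fold in cKO replicates 1 and 2, against 4.46-fold in WT replicate 2 and no peak in WT replicate 1. These regions were not tested.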
